A study of Homo sapiens with 96 samples.

Results

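Cycloheximide, an inhibitor of translation elongation, was followed for 3 and 5 h in A375 cells, a human melanoma line with an activating BRAF mutation, after pretreatment with the solvent DMSO alone. The description rests on 12 of the 96 QuantSeq 3′ end libraries of the series: all those labelled as DMSO-pretreated and harvested 3 or 5 h after cycloheximide or after vehicle, with 3 libraries in each of the 4 groups, matched by time. Cells had received DMSO for 18 h, then cycloheximide at 100 µg/ml or DMSO in its place for 5 min, then DMSO again, the slot in which triptolide was given in other arms of the design that are not analysed here. The other arms drawn on for comparison were the DMSO-pretreated cells at 0 and 1 h (6 libraries each) and cells pretreated for 18 h with the MAPK pathway inhibitors (MAPKi) vemurafenib, which targets mutant BRAF, and cobimetinib, which targets MEK, at 500 nM each (12 libraries at 3 and 5 h). All groups came from 1 cell line, and the labels name the molecule as cytoplasmic RNA, taken from a detergent lysate after the nuclei had been spun out, so nuclear transcripts are seen only as far as they reach that fraction.

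Cycloheximide stalls ribosomes on the mRNAs that they translate, and so removes short-lived proteins that the cell must keep making. In many cell types it is known to raise the mRNAs of immediate-early genes, a response called superinduction: these genes are transcribed within minutes of a signal, their mRNAs are normally destroyed quickly through AU-rich elements in the 3′ UTR, and some of the proteins that shut off their transcription or degrade their mRNAs are themselves short-lived. mRNAs that are degraded only while being translated, such as the substrates of nonsense-mediated decay and the replication-dependent histone mRNAs, are also known to accumulate when translation stops. In A375 cells the mutant BRAF keeps the ERK pathway, which drives many immediate-early genes, switched on.

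AU-rich elements of 5 genes that rose and a promoter element of EGR1 are shown first, because these features are the ones best known for immediate-early genes. Capitals mark the first AU-rich nonamer ATTTATTTA in the 3′ UTR of the gene's main transcript (GENCODE annotation on GRCh38, gene strand). In NUAK2 another nonamer overlaps the marked one and is left in lower case. In the EGR1 promoter (RefSeq sequence, GRCh38.p14) capitals mark the CArG box, the binding element of serum response factor. The sites lie at chr14:75282058-75282087 (plus strand) for FOS, chr5:172768640-172768669 (minus strand) for DUSP1, chr1:205302892-205302921 (minus strand) for NUAK2, chr12:57516617-57516646 (minus strand) for DDIT3, chr7:41686139-41686168 (minus strand) for INHBA, and chr5:138465364-138465393 (plus strand) for EGR1, where the box starts at position −105 relative to the gene's start.
FOS: tgtgtttttaATTTATTTAttaagatggat
DUSP1: gctggtccttATTTATTTAacttcacccga
NUAK2: ttttatttttATTTATTTAtttattttttt
DDIT3: gagattgtacATTTATTTAttactgtccct
INHBA: ccaatttcatATTTATTTAagattgattcc
EGR1: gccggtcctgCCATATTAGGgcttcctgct

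The 12 libraries held 3719323 to 11571408 counts, and the 20 most abundant entries took 10.3 to 12.5% of them. Values are given as counts per 1000000 (CPM) of the library size scaled by the trimmed mean of M values. Differences are log2 fold changes of cycloheximide over vehicle from edgeR's quasi-likelihood fit of all 96 libraries. Their standard errors (SE) were derived from the F statistic of that fit, as the absolute log2 change divided by the square root of F. A gene is called, and said to rise or fall, where the Benjamini-Hochberg adjusted p was under 0.05. Fold changes are relative to the other RNA of the same library: spike-in entries were not among those analysed, so a change in RNA per cell and a change in cell number cannot be told apart. The labels do not say whether the 3 libraries of a group came from separate cultures, so p-values measure the spread between these samples, which may be technical. Melanocyte lineage markers summed to 1065 to 1101 CPM in the vehicle libraries and 1176 to 1297 CPM in the cycloheximide libraries, carried by SOX10, MITF, S100B and CSPG4, while the pigment genes MLANA, TYRP1 and PMEL were at or near 0 in this line. Of the 16 markers of other cell types 6 passed the filter on low counts, and their sum of 111 to 151 CPM in vehicle and 146 to 209 CPM in cycloheximide libraries was almost all KRT10, a keratin gene, which rose by a log2 change of 0.38 ± 0.093 (adjusted p = 7.8e-04). The leukocyte gene PTPRC fell by 3.57 on the log2 scale at a mean of only 0.41 CPM, not called without replicate 2 or 3, the other 4 were not called, and the median of the 6 was −0.36 (−1.46 to −0.068 over left-out replicates). The part of these markers in the other results was not tested.

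Averaged over 3 and 5 h, cycloheximide raised 2733 of the 14948 genes tested (18.3%) and lowered 2011 (13.5%), and 731 of them rose and 287 fell by at least 2-fold (4.89% and 1.92%). More genes were called at 5 h than at 3 h. The direct test of the difference between the 2 times, given below, called 280 genes. At 3 h 1106 genes rose (7.4%) and 408 fell (2.73%), and at 5 h 2429 rose (16.2%) and 1639 fell (11%). The higher genes at the 2 times overlapped by 991, which is 89.6% of those called at 3 h and 40.8% of those called at 5 h, and the lower ones by 322, or 78.9% and 19.7%. Another 4 genes, named after their values were seen because they were few, were called in opposite directions: the co-chaperone gene CHORDC1 and STK32A-AS1, at a mean of 3.00 and 0.24 CPM, and TMEM177 and ZCCHC24, whose log2 changes were 0.52 and 0.41 at 3 h and −0.45 and −0.61 at 5 h. With scaling by total counts the split was 2425 higher and 2600 lower over both times, and 2062 higher and 2347 lower at 5 h. Median-of-ratios scaling gave 2566 higher and 2258 lower over both times. The excess of rises among all calls thus depended on the scaling over both times and at 5 h. Leaving out all libraries of 1 replicate number gave 756 (without replicate 1), 836 and 844 calls in place of 1514 at 3 h, and 2664 (without replicate 3) to 2991 in place of 4068 at 5 h.

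Almost none of this was present early. In the same pretreatment arm edgeR called no gene at 0 h, with 416 genes at an unadjusted p under 0.05 and none called by DESeq2, and 12 genes at 1 h, all of them higher (0.0803%, and 16 by DESeq2). The vehicle libraries moved little between 3 and 5 h, with 8 genes higher and 15 lower (0.154% in all) and 66 genes called by DESeq2. At both times together, 1861 genes (12.4%) had all 3 cycloheximide libraries above all 3 vehicle libraries, and 1015 (6.79%) had them below.

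Most of the 12 largest named rises, at a mean of at least 5 CPM, were immediate-early genes. The shares of all tested genes that rose, 18.3%, and fell, 13.5%, stand as background to each count of list members over 3 and 5 h. All 24 of the listed AP-1 and immediate-early genes that passed the filter on low counts (of 26 listed) rose, 22 of them by at least 2-fold, and their median log2 change was 3.34, against 0.01 over all tested genes. In 21 of the 24 the cycloheximide and vehicle libraries did not overlap at either time.

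FOS, a subunit of the AP-1 transcription factor whose mRNA carries the nonamer shown above, was at 7.56, 6.60 and 4.86 CPM in the vehicle libraries at 3 h and at 2.70, 4.64 and 3.49 CPM at 5 h. With cycloheximide it was at 425, 390 and 432 CPM at 3 h and at 637, 609 and 774 CPM at 5 h. Every cycloheximide library lay far above every vehicle library, and the later ones above the earlier ones. The log2 change over both times was 6.80 ± 0.21 (adjusted p = 5.8e-43), a 112-fold rise. JUN, its usual partner, went from 57.4, 56.5 and 58.8 CPM to 1277, 1177 and 1221 CPM at 3 h, and from 53.8, 59.5 and 42.7 CPM to 1780, 1679 and 1652 CPM at 5 h. Its vehicle level stayed flat while the cycloheximide level climbed, and the log2 change was 4.73 ± 0.11 (adjusted p = 1.3e-50). FOSB and JUNB followed with log2 changes of 6.16 ± 0.22 and 4.17 ± 0.17. The Fos-related subunits FOSL1 and FOSL2, which in melanoma are steady products of ERK signalling, rose less, by 1.55 and 1.62. The FOSB gene overlaps ERCC1 in the annotation, and the strand setting of the counting is not given in the sources used here, so reads of such overlapping genes cannot be told apart.

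**Figure D1:**
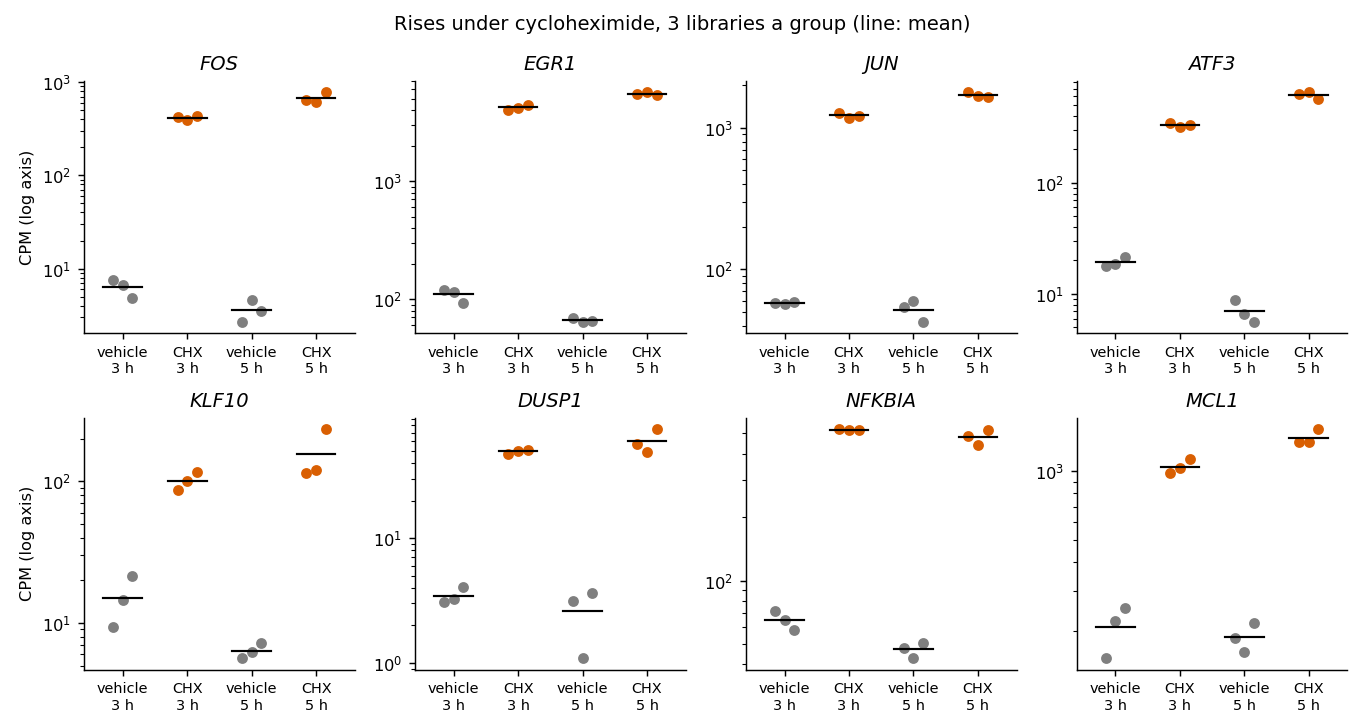
Level of immediate-early and related genes in each of the 12 libraries, as CPM on a log axis, by group (vehicle and cycloheximide at 3 and 5 h). Each point is 1 library. The cycloheximide libraries sit above all vehicle libraries in every panel, with FOS at 390 to 774 CPM against 2.70 to 7.56 CPM.

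The EGR family, zinc finger transcription factors induced by growth factors, changed as strongly. EGR1, with the CArG box shown above, was at 121, 115 and 93.5 CPM in vehicle and 4044, 4203 and 4409 CPM in cycloheximide libraries at 3 h, and at 69.4, 64.6 and 65.0 CPM against 5519, 5646 and 5421 CPM at 5 h. Replicates lay close together in each group, and the log2 change was 5.82 ± 0.16 (adjusted p = 9.1e-46), a 56.6-fold rise. EGR2 was at 2.80, 2.04 and 1.66 CPM in vehicle at 3 h against 163, 179 and 217 CPM, and at 0.901, 0 and 1.61 CPM at 5 h against 355, 362 and 421 CPM, a log2 change of 7.49 ± 0.26. EGR4 had no counts in the 3 vehicle libraries at 3 h and 150, 148 and 159 counts with cycloheximide, at least 166-fold higher than a floor of 3 counts over the group. At 5 h it had 2 counts in the vehicle libraries together and 1338 in the cycloheximide libraries, a ratio of 488 (95% exact interval 135 to 4036, for counting error alone). EGR4 was called over both times by edgeR (adjusted p = 2.0e-12) and not by DESeq2 (adjusted p = 0.14). EGR3 rose by 2.93.

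Further members of the list were the nuclear receptors NR4A1, NR4A2 and NR4A3, which are regulated by their abundance rather than by a ligand, with rises of 3.55, 3.08 and 4.72. ARC, an immediate-early gene best known from neurons, rose by 5.47 ± 0.43, and IER2 by 4.21 ± 0.11. ATF3, a stress-induced repressor, was at 17.8, 18.7 and 21.6 CPM in vehicle libraries at 3 h and at 8.78, 6.54 and 5.64 CPM at 5 h. It was at 345, 318 and 329 CPM with cycloheximide at 3 h and at 625, 649 and 573 CPM at 5 h. The vehicle level thus went down and the cycloheximide level up, and the log2 change was 5.29 ± 0.16. Smaller rises were those of SRF (0.37) and MAFK (0.30), the 2 members called below 2-fold, SRF not without replicate 1 or 2 and MAFK not whichever replicate was left out. The MYC entry rose by 1.12 ± 0.43 (adjusted p = 0.037) at only 1.36 to 17.6 CPM, and was not called without replicate 1 (0.95) or replicate 2 (1.14). At 1 h the list's median was 0.39, with JUN already at 2.09 and EGR1 at 2.44, and its median at 3 h and at 5 h was 2.94 and 3.84.

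Among the Krüppel-like factors, transcription factors of which several are induced by stress or serum, 7 of 12 tested rose and 1 fell, with a median of 1.2. KLF10, induced by TGF-beta, went from 9.38, 14.4 and 21.5 CPM to 86.9, 99.8 and 115 CPM at 3 h and from 5.63, 6.27 and 7.26 CPM to 114, 121 and 233 CPM at 5 h (log2 change 3.66 ± 0.24). KLF4 and KLF6 rose by 2.01 and 1.43, KLF12 fell by 0.52 on the log2 scale (not called without replicate 1 or 3), and KLF3 was at 0.02.

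Feedback inhibitors of signalling rose with the activators. Of 17 tested genes that restrain or report ERK activity 10 rose and 2 fell, with a median of 0.83. DUSP1, a phosphatase that inactivates MAP kinases and whose mRNA carries a nonamer, was at 3.08, 3.24 and 4.08 CPM in vehicle and 47.5, 49.96 and 51.1 CPM in cycloheximide libraries at 3 h, and at 3.15, 1.09 and 3.63 CPM against 56.7, 48.7 and 74.5 CPM at 5 h. The groups were far apart at both times (log2 change 4.13 ± 0.30). SPRY2 and SPRY1, which block receptor signalling upstream of ERK, rose by 2.36 and 2.26, and DUSP6, the ERK-specific phosphatase, by 1.40. The ETS factors ETV4 and ETV5, also read as reporters of ERK output, fell by 0.33 and 0.38 on the log2 scale, neither called without replicate 1 or without replicate 3, and DUSP4 was at 0.10 and SPRED2 at 0.05. Members of the list thus ranged from large rises to values near 0.

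Of the NF-kB feedback genes and chemokines 17 of 20 tested rose and none fell, with a median of 1.87, and 8 of the 28 listed did not pass the filter. NFKBIA, the inhibitor that retains NF-kB in the cytoplasm and is itself lost when translation stops, went from 71.6, 65.0 and 58.3 CPM to 524, 520 and 519 CPM at 3 h and from 48.0, 42.8 and 50.7 CPM to 484, 443 and 517 CPM at 5 h. The levels at 5 h were close to those at 3 h (log2 change 3.17 ± 0.12, adjusted p = 1.2e-37). TNFAIP3, a deubiquitinase that ends NF-kB signalling, rose by 3.12 ± 0.22, and its gene overlaps WAKMAR2. BIRC3, an inhibitor of cell death, rose by 2.65, and the NF-kB subunits REL and RELB by 2.28 and 1.98. CXCL1, CXCL3 and CXCL8 rose by 2.39, 2.48 and 1.77, all at a mean under 5 CPM, CXCL3 not called without replicate 3 and CXCL8 not without replicate 2. NFKBIZ and TNIP1 were at −0.03 and 0.00.

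TGF-beta and BMP feedback genes rose in 12 of 13 tested cases, with a median of 1.36. ID1, an inhibitor of differentiation factors and a direct BMP target, was at 48.0, 56.3 and 58.8 CPM in vehicle and 397, 374 and 423 CPM in cycloheximide libraries at 3 h, and at 44.6, 45.0 and 47.3 CPM against 341, 357 and 511 CPM at 5 h (log2 change 3.01 ± 0.17). SKIL, a repressor of SMAD proteins, rose by 2.23 ± 0.093, and SMAD7, which blocks the receptor, by 1.27 (0.98 and not called without replicate 1). INHBA, a subunit of activin with a nonamer in its 3′ UTR, rose by 2.65 ± 0.19. SKI was the exception, at −0.09.

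Targets of the co-activator YAP were called higher in 8 of 14 cases and lower in none (median 0.74, and 1.14 without replicate 3). NUAK2, a kinase whose 3′ UTR holds 2 overlapping nonamers, went from 2.52, 3.48 and 3.53 CPM to 52.0, 63.6 and 58.9 CPM at 3 h and from 5.18, 3.27 and 4.84 CPM to 113, 109 and 113 CPM at 5 h (log2 change 4.40 ± 0.28). CCN1, a matrix protein, rose by 3.28 ± 0.38 with a wide spread at 5 h, where the 3 cycloheximide libraries were at 171, 306 and 871 CPM and the vehicle libraries at 15.5, 14.2 and 54.0 CPM. ANKRD1 rose by 2.01, CCN2 by 0.61 (not called without replicate 1), and TEAD1, the DNA-binding partner of YAP, was at 0.07.

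The proteins that bring mRNAs to the deadenylation machinery are encoded by short-lived mRNAs, and 10 of 11 listed adaptor genes rose (6 without replicate 2), with a median of 0.66. ZFP36L1, which binds AU-rich elements, rose by 1.08, BTG1 by 1.11, ZC3H12A, an endonuclease that cleaves cytokine mRNAs, by 1.78, and TOB2 by 0.66. ZFP36, the founding member of the AU-rich element binders, rose by 2.63 ± 0.58 but had at most 6.10 CPM in any library. ZFP36L2 was at −0.08.

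mRNAs known to depend on translation for their decay were mixed. Of the 10 listed substrates of nonsense-mediated decay 5 rose and 1 fell, with a median of 0.21. GADD45B, a stress sensor, was at 19.5, 24.2 and 25.7 CPM in vehicle and 214, 209 and 250 CPM with cycloheximide at 3 h, and at 20.3, 12.3 and 21.1 CPM against 290, 332 and 449 CPM at 5 h (log2 change 3.78 ± 0.19). GADD45A and ATF4 rose by 1.64 and 1.58, and DNAJB2 by 0.81. TBL2, ARHGEF18 and UPP1 were at 0.23, 0.08 and 0.20, none of them called, and TMEM183A fell by 0.27 on the log2 scale, not called without replicate 1 or 3. Of the 13 tested factors of the pathway itself, 6 rose (4 without replicate 2 or 3) and none fell (median 0.23), with UPF2 at 0.67 and UPF1, the central helicase, at 0.12.

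Non-coding hosts of snoRNAs, whose spliced transcripts carry short reading frames and are degraded upon translation, rose in 16 of 22 cases and fell in 2, with a median of 0.75. GAS5, the best known of them, went from 103, 111 and 129 CPM to 284, 289 and 301 CPM at 3 h and from 104, 125 and 120 CPM to 399, 420 and 404 CPM at 5 h (log2 change 1.58 ± 0.071, adjusted p = 3.6e-32). No library of the treated groups came near the vehicle range. ZFAS1, EPB41L4A-AS1 and SNHG12 rose by 2.37, 2.34 and 2.25 and SNHG1 by 1.53. SNHG16 rose by no more than 0.14 and was not called whichever replicate was left out, SNHG25, one of the most abundant of them, was at 0.05 and not called, and SNHG4 and SNHG14 fell, at a mean of 2.11 and 3.35 CPM, and neither was called without replicate 1 or without replicate 2.

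The SR proteins, which regulate splicing and control their own mRNAs through exons that trigger decay, rose in 10 of 13 cases with a median of 0.58. TRA2B was at 321, 336 and 372 CPM in vehicle and 923, 887 and 917 CPM in cycloheximide libraries at 3 h, and at 330, 300 and 346 CPM against 1135, 1060 and 1111 CPM at 5 h, a log2 change of 1.58 ± 0.065. The other large rises were TRA2A (1.17), SRSF7 (0.98) and SRSF5 (0.97), whereas SRSF9 fell by 0.32 on the log2 scale.

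Replication-dependent histone genes rose in 21 of 40 tested cases and fell in none, with a median of 1.24, and 20 of the rises were at least 2-fold. The 21 became 17, 18 and 17 without replicate 1, 2 or 3, and 12 of the 40 had a mean of at least 5 CPM. Their mRNAs end in a stem-loop in place of a poly(A) tail, and 25 of the 65 listed did not pass the filter on low counts in these oligo(dT)-primed libraries. H3C4 was at 0.560, 0.720 and 3.09 CPM in vehicle and 4.76, 5.93 and 6.32 CPM in cycloheximide libraries at 3 h, and at 2.25, 1.09 and 1.21 CPM against 41.0, 36.8 and 42.3 CPM at 5 h (log2 change 3.32 ± 0.35). H2BC4 and H1-3 rose by 2.23 and 2.00. The linker histone H1-2 and H4C3, both far above 100 CPM, rose by 1.24 and 1.2. These genes are near-identical copies within each class, so reads may be shared between members.

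**Figure D2:**
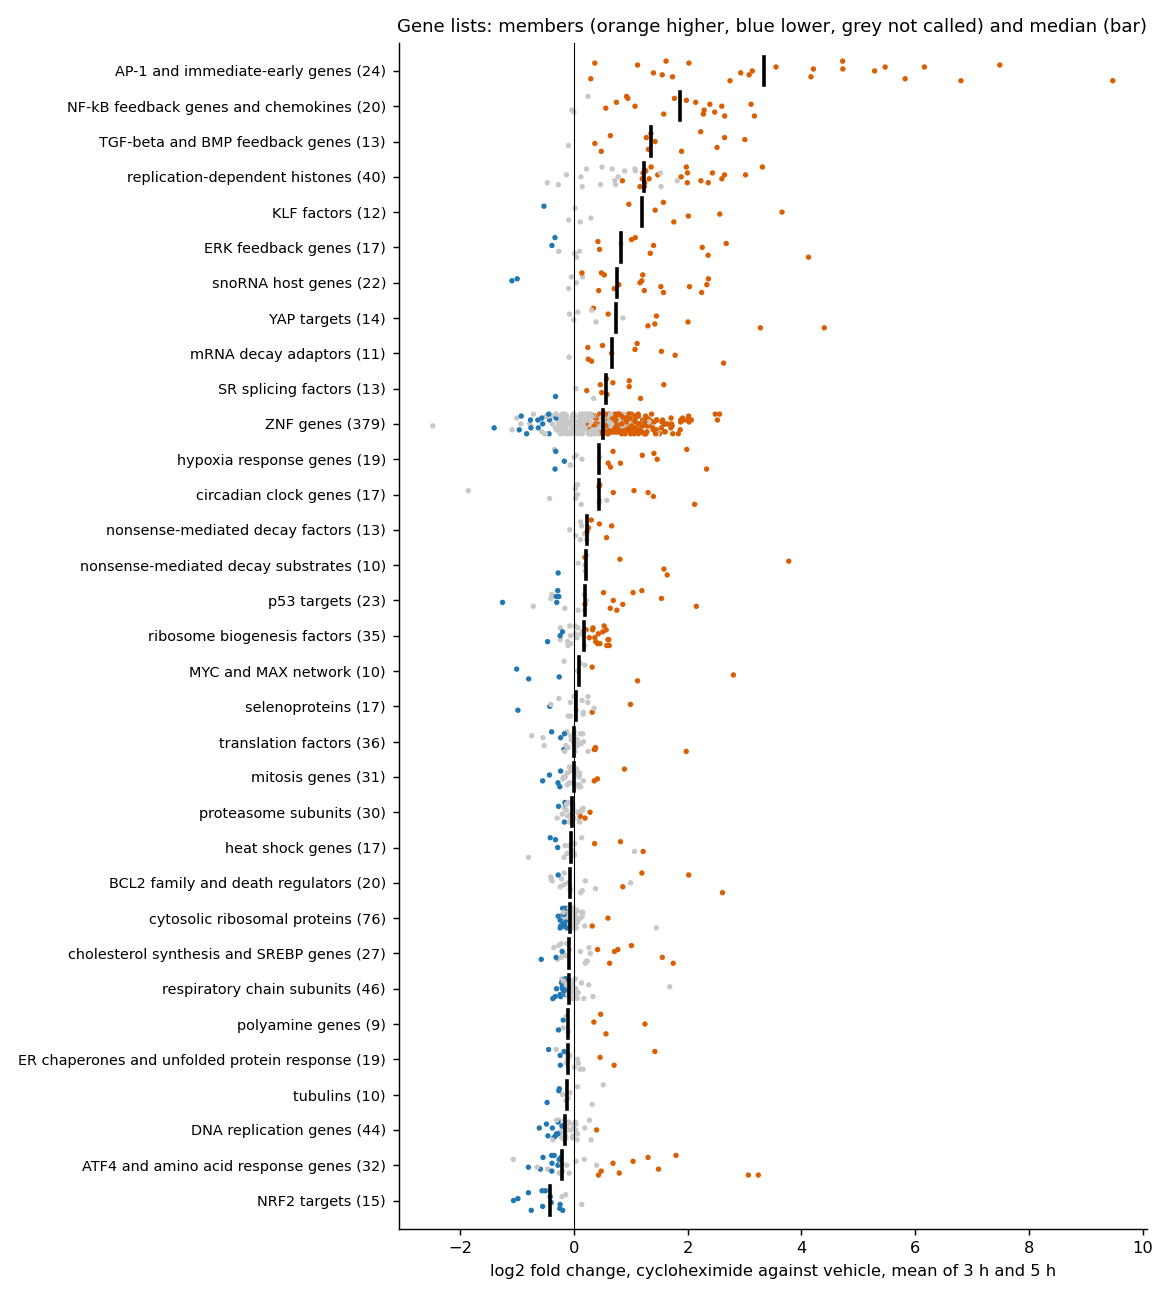
Log2 fold change of cycloheximide against vehicle, mean of 3 and 5 h, for every tested member of each gene list (points, orange called higher, blue called lower, grey not called) with the list's median (bar) and the number tested in brackets. The median of 3.34 of the immediate-early list stands at the top end, that of the NRF2 targets, −0.41, at the low end.

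Stress pathways did not rise as whole programmes. Of 32 tested genes of ATF4 and the amino acid response, 10 rose and 10 fell (median −0.20). PPP1R15A, which restarts translation by directing a phosphatase to eIF2, was at 73.9, 75.8 and 69.5 CPM in vehicle and 412, 429 and 430 CPM with cycloheximide at 3 h, and at 38.1, 31.6 and 40.9 CPM against 515, 574 and 638 CPM at 5 h, a log2 change of 3.24 ± 0.13. DDIT3 (CHOP), a stress factor that promotes cell death and whose mRNA has a nonamer in a 3′ UTR of 216 bases, rose by 3.07 ± 0.11, and DDIT4, an inhibitor of mTORC1, by 1.80. The metabolic targets were split: SLC7A11, the cystine transporter, fell by 0.80 on the log2 scale, the arginine transporter SLC7A1 by 0.59, and PSAT1 and PHGDH, enzymes of serine synthesis, by 0.38 each (PSAT1 not called without replicate 1 or 3), while SLC3A2, the heavy chain of several amino acid transporters, rose by 1.04 and SLC7A5, a light chain that pairs with it, by 0.43. Genes of the unfolded protein response were called higher in 3 and lower in 4 of 19 cases (median −0.10), or 15.8% and 21.1%, with 2 lower without replicate 1. DNAJB9 rose by 1.43 and XBP1 by 0.46, while the main ER chaperones HSPA5 and HSP90B1 were at 0.11 and −0.07. Heat shock genes gave 3 higher and 3 lower of 17 (17.6% each, median −0.04, and −0.11 without replicate 1), with DNAJB1 at 1.22 and HSP90AA1 at −0.08.

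NRF2, the activator of antioxidant genes, is a protein turned over within minutes. Of its 15 listed targets 12 fell and none rose, with a median of −0.41. OSGIN1 was at 41.9, 44.04 and 35.5 CPM in vehicle and 26.8, 21.8 and 17.6 CPM with cycloheximide at 3 h, and at 55.0, 63.5 and 38.7 CPM against 26.4, 20.98 and 19 CPM at 5 h. The groups did not overlap at either time (log2 change −1.06 ± 0.18, adjusted p = 2.4e-06). TXNRD1, thioredoxin reductase, fell by 0.98 on the log2 scale from 157 to 250 CPM in the vehicle libraries to 86.8 to 129 CPM, HMOX1 by 0.75, and NQO1 by 0.41. SLC7A11, also listed with the ATF4 genes, fell as given above.

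Of 23 tested p53 targets 10 rose and 5 fell (median 0.19). The 5 falls became 2, 2 and 1 without replicate 1, 2 or 3, and the median was 0.085 without replicate 2. CDKN1A, the inhibitor p21, went from 46.2, 37.6 and 38.2 CPM to 62.8, 67.4 and 59.5 CPM at 3 h and from 47.3, 52.4 and 41.9 CPM to 85.1, 103 and 72.1 CPM at 5 h (log2 change 0.76 ± 0.10). PLK3 and PMAIP1 rose by 2.15 and 1.2. ZMAT3, an RNA-binding target of p53, fell from 53.8 to 70.7 CPM in the vehicle libraries to 19.2 to 32.9 CPM (log2 change −1.25 ± 0.094), and MDM2, the ligase that degrades p53, fell by 0.26 on the log2 scale, not called without replicate 3.

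Genes of cholesterol synthesis and of SREBP, the factor that senses sterols, gave 7 higher and 3 lower of 27 (median −0.07), with 1 lower without replicate 1 or 3. HMGCS1, an enzyme of the pathway, and INSIG1, which holds SREBP back, rose by 0.78 and 0.72, and the enzyme gene DHCR7 fell by 0.57 on the log2 scale, not called without replicate 1.

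The genes of the translation apparatus, the target of the drug, changed little. Of 76 cytosolic ribosomal protein genes 2 rose, RPL22L1 by 0.60 and RPL3 by 0.33, and 18 fell (1, 12 and 12 without replicate 1, 2 or 3), with a median of −0.06 (−0.094 without replicate 2) and a lowest value of −0.27, and of 36 translation factors 4 rose and 4 fell, the falls becoming 1 and 2 without replicate 1 or 3 (median 0.01, and −0.019 under DESeq2, −0.045 with total-count scaling and −0.019 without replicate 2). EIF4A2, a helicase of initiation that hosts snoRNAs, rose by 1.98, and EIF5 and EIF1 by 0.36 and 0.38. The elongation factors EEF1A1 and EEF2 were at 0.25 and 0.06, neither called. Ribosome biogenesis factors leaned upward, with 17 of 35 higher and 3 lower, 1 without replicate 1 (median 0.18), as NOP16 and RRS1 at 0.62 and 0.60. Proteasome subunits gave 3 higher (1 whichever replicate was left out) and 4 lower of 30, 2 without replicate 1 (median −0.04, and −0.06 without replicate 2), and nuclear-encoded respiratory chain subunits none higher and 15 lower of 46, which became 3, 12 and 4 without replicate 1, 2 or 3 (median −0.08, and −0.047 without replicate 3), all by less than 0.4 on the log2 scale. Selenoproteins gave 2 higher and 2 lower of 17, and polyamine genes 4 higher and 2 lower of 9, with SAT1, which breaks polyamines down, at 1.25 and ODC1, which starts their synthesis, at 0.57 (0.47 without replicate 1 and 0.48 without replicate 2, not called in either). Tubulin mRNAs, which are degraded during translation when free tubulin is plentiful, gave none higher and 3 lower of 10, TUBB6 and TUBA1B by 0.47 and 0.26 on the log2 scale, TUBA1B not without replicate 3 (−0.19). TUBA1A was called higher without replicate 3 (0.46) and with no filter on low counts (0.30).

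Cell cycle genes were close to vehicle at these times. Of 31 mitosis genes 3 rose and 5 fell, 3 without replicate 2 or 3 (median 0.01, and −0.038 without replicate 3 and −0.048 with total-count scaling), CCNA2 by 0.55 and CDC20 by 0.43 on the log2 scale, and CKS2 rose by 0.89. Of 44 DNA replication genes 1 rose, ORC6, not called whichever replicate was left out, and 11 fell, 7, 13 and 5 without replicate 1, 2 or 3 (median −0.15), among them CCNE2 by 0.60 (−0.53 and not called without replicate 1) and GINS1 by 0.48. In the BCL2 family 4 of 20 rose and 1 fell (20% and 5%), the fall not without replicate 1, and the median of −0.06 was 0.033 without replicate 3. MCL1, an anti-apoptotic protein with rapid turnover, was at 152, 221 and 253 CPM in vehicle and 979, 1035 and 1129 CPM with cycloheximide at 3 h, and at 186, 162 and 216 CPM against 1340, 1346 and 1529 CPM at 5 h (log2 change 2.61 ± 0.13, adjusted p = 8.6e-30). PMAIP1 (NOXA) and BBC3 (PUMA), which oppose MCL1, rose by 1.2 and 0.86, while BCL2 and BCL2L1 were at −0.39 and −0.24 and not called. In the MYC network 3 of 10 rose and 3 fell, with MXD1, an antagonist of MYC, at 2.81 ± 0.22 and MXD4 at −1.002.

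Clock genes rose in 7 of 17 cases (median 0.45). PER1 and PER2, whose protein products close the clock's feedback loop, rose by 2.12 and 1.06, and the core activator CLOCK was at 0.03. Hypoxia response genes gave 9 higher and 3 lower of 19, 1 lower without replicate 3 (median 0.45), led by the peptide hormone ADM (2.33) and PFKFB4 (1.99), while PGK1 and ENO1 fell by 0.16 and 0.33 on the log2 scale, PGK1 not without replicate 3. Zinc finger genes named ZNF, mostly KRAB-type repressors, rose in 177 of 379 tested cases and fell in 14 (9 without replicate 1), with a median of 0.51, and 77 rose by at least 2-fold. ZNF136, ZNF256 and ZNF608 were at 2.07, 2.03 and 2.02. Some of the 177 rises were not called when a replicate was left out, ZNF17, ZNF23 and ZNF841 whichever it was. Of 11 tested melanocyte lineage markers 3 rose, 1 fell and 7 were not called, with a median of −0.14. SOX10 rose from 138 to 221 CPM in vehicle libraries to 294 to 367 CPM (log2 change 0.99 ± 0.086), PAX3 by 0.62 and MITF by 0.54. S100A1 fell by 0.35 on the log2 scale, not called without replicate 1 or 2, and DCT, S100B and CSPG4 were at −0.23, −0.10 and −0.15.

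Falls were smaller than rises and led by few coding genes. CBX6, a subunit of the Polycomb repressive complex, was at 417, 391 and 360 CPM in vehicle and 118, 123 and 87.3 CPM in cycloheximide libraries at 3 h, and at 402, 463 and 447 CPM against 75.9, 69.7 and 66.0 CPM at 5 h. The treated libraries formed a tight group well below vehicle at both times (log2 change −2.23 ± 0.071, adjusted p = 7.6e-42). LGR4, a receptor for R-spondins, fell by 1.86 on the log2 scale from 5.18 to 10.4 CPM to 0.977 to 3.57 CPM. NANOS1, a translational repressor, fell by 1.71 and PRTG, a receptor of the immunoglobulin superfamily, by 1.55. In the annotation LGR4 overlaps LGR4-AS1 and NANOS1 overlaps EIF3A, both on the other strand.

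The remaining largest falls were non-coding or repeated entries. TRNS2, a mitochondrial tRNA, fell by 2.17 on the log2 scale, the snoRNA SNORA79, within an intron of GTF2A1, by 1.5, and the ribosomal protein pseudogene RPL23AP32, which lies within SPTBN1, by 1.94. LOC107986862, LOC107986874, LOC107986699, LOC107984120 and KCNQ5-IT1 fell by 2.42, 1.98, 1.95, 1.76 and 1.79. Of the 12 largest rises 3 were also uncharacterised entries: LOC107987311 (6.41), LOC105370363 (6.06) and LOC101930665 (5.38).

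**Figure D3:**
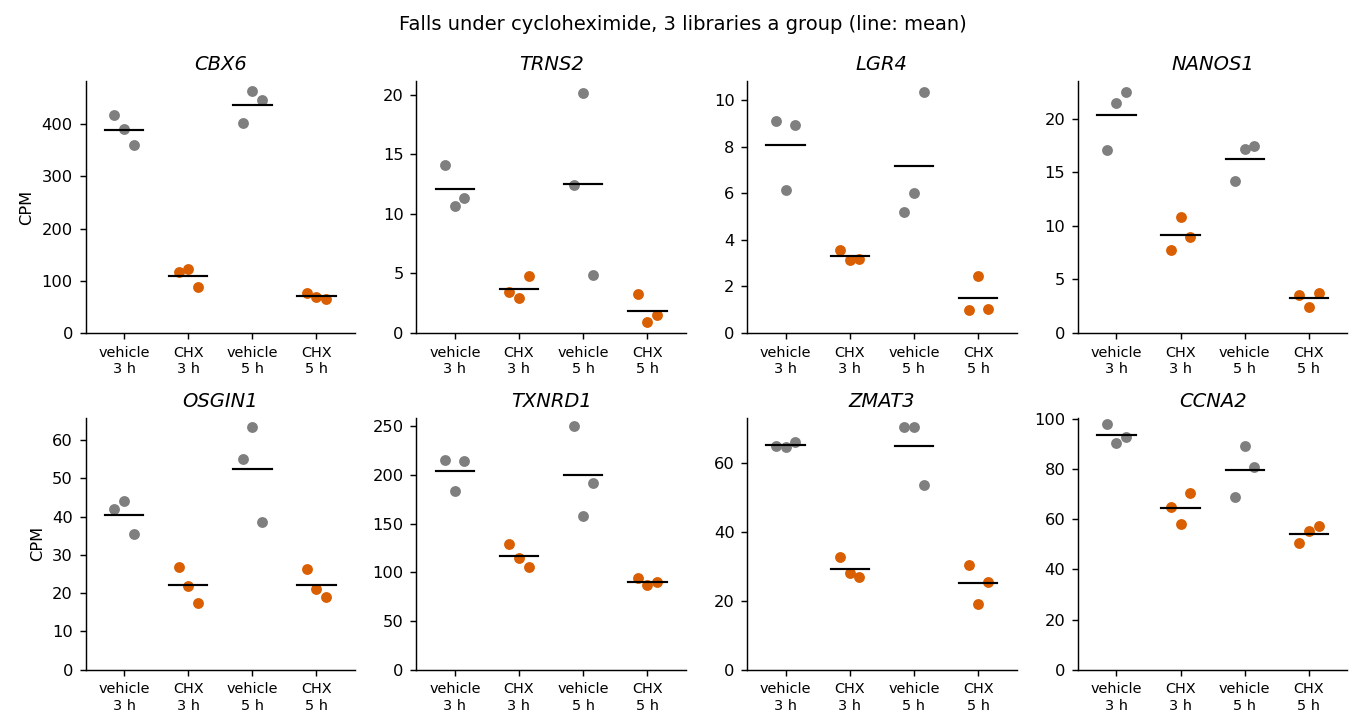
Level of genes that fell, in each of the 12 libraries, as CPM by group (vehicle and cycloheximide at 3 and 5 h). Each point is 1 library. CBX6 lies at 360 to 463 CPM in the 6 vehicle libraries and at 66.0 to 123 CPM in the 6 cycloheximide libraries.

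The difference between 5 and 3 h was tested as such. Of all genes 182 (1.22%) had a higher effect at 5 h and 98 (0.656%) a lower one, and with total-count scaling 120 and 125. The 4 largest increases included ATF3 (difference 2.40 between log2 effects of 4.09 and 6.49) and the histone gene H3C4 (2.82, from 1.91 to 4.72). KLHL15, an adaptor of a ubiquitin ligase, was at 2.94, 5.28 and 6.29 CPM in vehicle at 3 h against 7.15, 7.82 and 6.95 CPM, and at 0.450, 1.36 and 1.08 CPM at 5 h against 9.12, 8.04 and 15.7 CPM, so the vehicle level was lower at 5 h and the treated level about the same or higher. LOC105370363 had no counts in vehicle at 5 h and was at least 97.8-fold above a floor of 3 counts over the group. The largest decreases were genes that had not moved at 3 h. CHST1, a sulfotransferase, was at 23.0, 13.6 and 14.6 CPM in vehicle against 20.99, 16.5 and 14.4 CPM at 3 h, and at 21.2, 30 and 18.01 CPM against 7.33, 7.37 and 6.74 CPM at 5 h. ZBTB47, the DNA glycosylase NEIL3 and CTTNBP2 had log2 effects of −0.29, 0.07 and 0.28 at 3 h and −1.97, −1.51 and −1.21 at 5 h. These differences rest on few libraries: without replicate 1, 2 or 3 the count of 280 became 71, 79 and 75, and of the 8 named genes ATF3 alone was called each time. CHST1 was lost without replicate 2 (−1.39), H3C4 without replicate 1 (3.41) or 3 (1.48), ZBTB47 without replicate 1 (−1.41) or 3 (−1.73), and LOC105370363, KLHL15, NEIL3 and CTTNBP2 whichever replicate was left out.

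**Figure D4:**
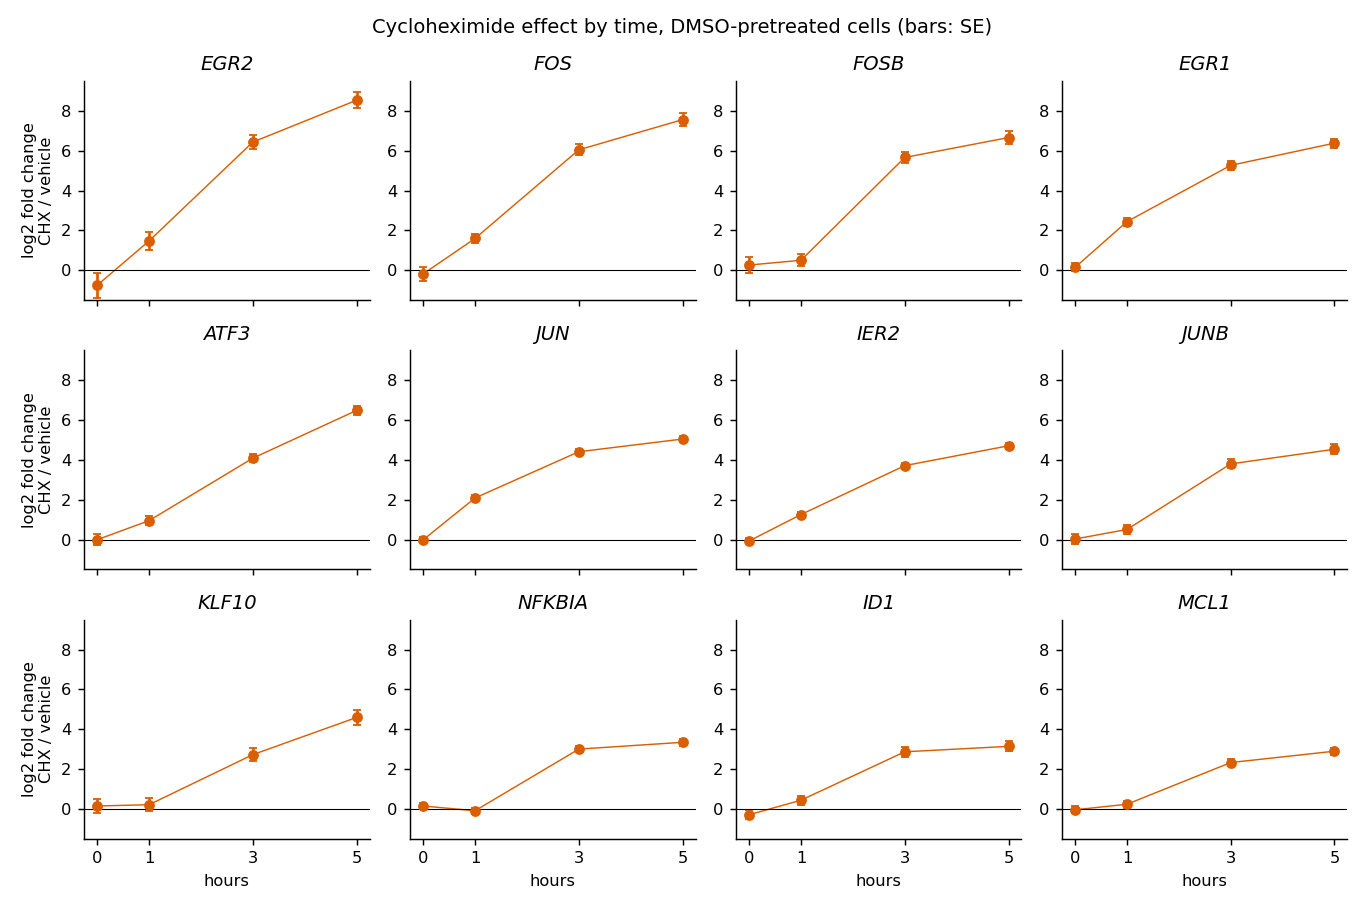
Log2 fold change of cycloheximide over vehicle at 0, 1, 3 and 5 h in DMSO-pretreated cells, 1 gene per panel, with standard errors as bars. Effects at 0 h lie near 0, and FOS goes from 1.60 at 1 h to 6.05 at 3 h and 7.56 at 5 h.

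Against 1 h, the effect over 3 and 5 h was higher for 1147 genes (7.67%) and lower for 535 (3.58%), and with total-count scaling for 954 and 840. The largest increases were EGR2, FOSB, FOS and NR4A3, with differences of 6.02, 5.66, 5.21 and 4.78. Their effects at 1 h were 1.47, 0.50, 1.60 and −0.05. The decreases of XAGE1A and YWHAE rest on the 1 h libraries, where cycloheximide gave 64.0 ± 107 CPM and 28.1 ± 45.6 CPM (SD, n = 3) against 2.11 ± 0.14 and 1.13 ± 0.33 CPM with vehicle. Those standard deviations exceed the means, and over 3 and 5 h neither gene was called (log2 change −0.58 and −0.35). The difference of XAGE1A was −0.63 without replicate 2 and that of YWHAE −1.12 without replicate 3, no longer called. Without replicate 1, 2 or 3 the 1682 genes called became 923, 987 and 770. LOC107985000 and LOC107984747 fell by 3.00 and 2.86 over 3 and 5 h and were at −0.22 and −0.44 at 1 h.

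The response after MAPKi pretreatment was compared with that after DMSO. Genes named for a large change after DMSO were chosen by the effect that the difference subtracts, a choice that by itself favours a smaller effect after MAPKi. The log2 effect of cycloheximide over 3 and 5 h, taken with its sign, was higher after MAPKi than after DMSO for 693 genes (4.64%). It was lower for 985 (6.59%). A lower value can be a weaker rise or a deeper fall, and a higher one a stronger rise or a weaker fall. Scaling by total counts shifted the median difference over all genes from −0.04 to 0.10 and gave 1558 and 490, so modest differences in either direction depend on the scaling. Without replicate 1, 2 or 3 the 1678 calls became 835, 1148 and 827. EGR1 reached a mean of 5528 ± 113 CPM (SD, n = 3) with cycloheximide at 5 h after DMSO and 0.893 ± 0.25 CPM after MAPKi, where the vehicle level was 0.871 ± 0.11 CPM. After MAPKi there was thus no detectable rise at this depth (log2 effect 0.21 ± 0.41, difference −5.62, adjusted p = 3.4e-13). FOS reached 674 ± 88.3 CPM after DMSO and 25.1 ± 6.28 CPM after MAPKi, from vehicle levels of 3.61 ± 0.97 and 18.7 ± 1.57 CPM, and the effects differed by −5.98 (adjusted p = 2.0e-31). The effect on FOSB differed by −4.46 and that on FLG, the skin barrier protein filaggrin, by −4.13. MCL1 rose by 2.61 after DMSO and had an effect of 0.27 after MAPKi (difference −2.34, adjusted p = 3.7e-18), and INHBA had 2.65 and 0.35 (difference −2.30). CDKN1A rose after DMSO and was lower after MAPKi (log2 effect −1.17, difference −1.93, adjusted p = 3.3e-18).

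Across the lists, 16 of the 24 immediate-early genes had a lower log2 effect after MAPKi and 1 a higher one. Their median effect was 1.69 after MAPKi and 3.34 after DMSO. JUNB was among those that still rose, by 3.21 ± 0.16. Of the snoRNA hosts 11 of 22 had a lower effect and none a higher one, with GAS5 at 0.18 and ZFAS1 at 0.38 after MAPKi. The effect was also lower for 9 of 40 histones and for 6 of 13 TGF-beta and BMP genes, where 1 was higher. NF-kB genes kept a median of 1.53, with 4 effects higher and 2 lower. NFKBIA had log2 effects of 3.17 and 3.33 (difference 0.16, not called), and TNFAIP3 reached 82.9 ± 5.66 CPM after MAPKi from 0.816 ± 0.68 CPM, a larger effect than after DMSO (difference 2.97, adjusted p = 9.9e-10). After DMSO the vehicle libraries at 5 h held 35, 35 and 41 counts of TNFAIP3, in totals of 4513416, 3719323 and 7675571. The cycloheximide libraries held 556, 386 and 930, in totals of 6648023, 4822640 and 11571408. The vehicle level was lower after MAPKi, so the larger log2 effect does not by itself mean a higher level reached. The other 3 largest increases were PLD6, whose gene overlaps MPRIP, RN7SK, the RNA of the snRNP that holds the elongation factor P-TEFb inactive, and POU3F2, a neural transcription factor also found in melanoma. Their log2 effects were 2.86, 2.2 and 1.92 after MAPKi and 0.33, −0.11 and −0.14 after DMSO, where none was called. Other lists differed otherwise. For DNA replication genes the effect was higher in 17 of 44 and lower in none (median 0.16 after MAPKi, −0.15 after DMSO). It was lower in 29 of 76 ribosomal protein genes (−0.31 and −0.06) and in 13 of 46 respiratory chain subunits (−0.38 and −0.08), and higher in none. As said above, modest differences depend on the scaling.

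**Figure D5:**
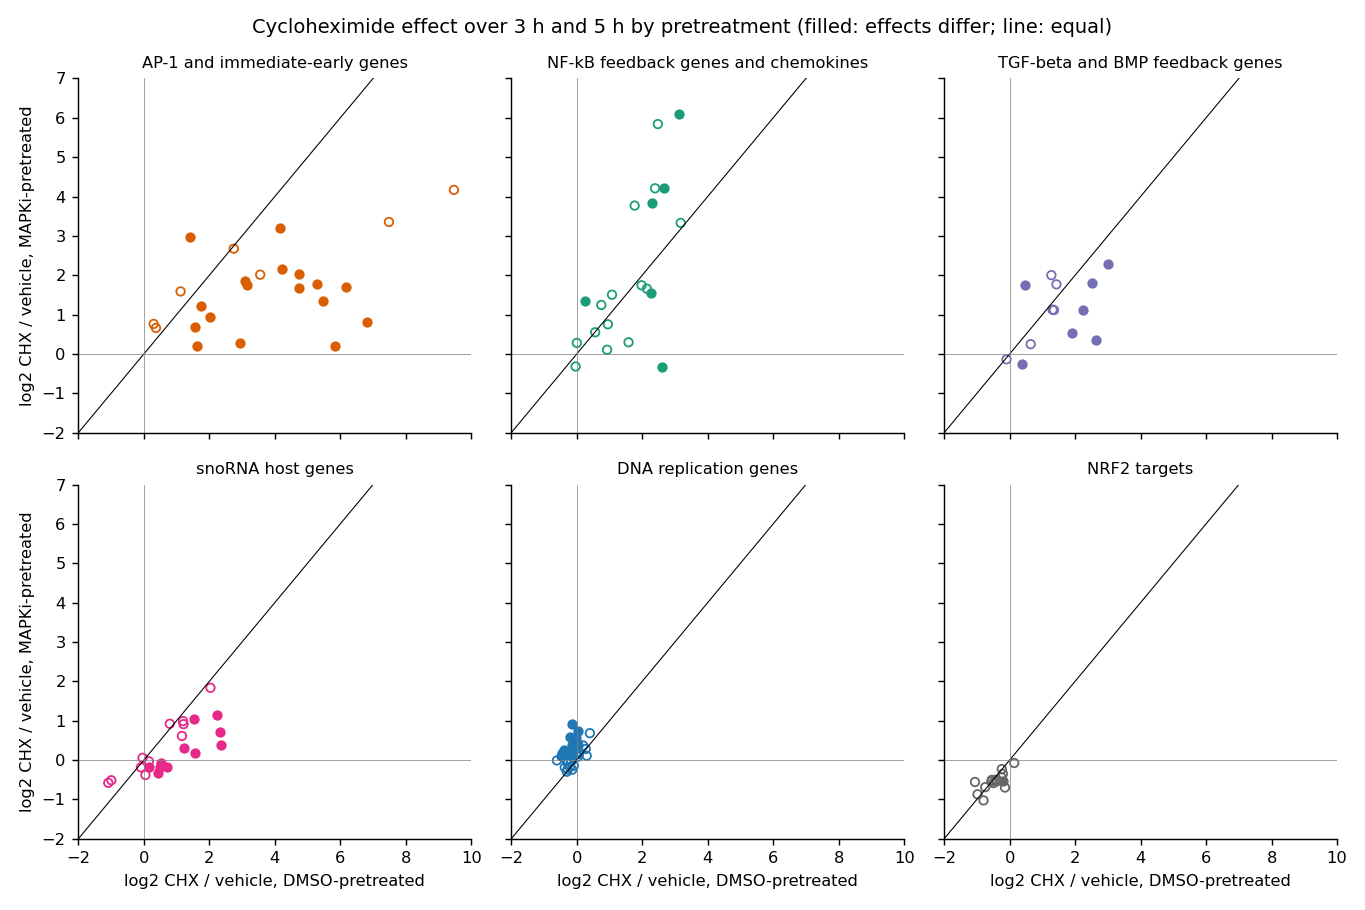
Log2 effect of cycloheximide over 3 and 5 h after MAPKi pretreatment (vertical axis) against that after DMSO pretreatment (horizontal axis) for members of selected gene lists, with genes whose effects differed drawn filled and the line of equal effects. EGR1 lies at 5.82 after DMSO and 0.21 after MAPKi, NFKBIA near the line at 3.17 and 3.33.

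Genes that rose at least 2-fold were compared with all tested genes for sequence and structure, as a description. Of the 731 risers 637 (87.1%) matched a GENCODE gene by symbol, 575 of them coding. The nonamer ATTTATTTA, searched on the gene strand, was found in the 3′ UTR of 68 of the 575 (11.8%), against 973 of 11946 tested coding genes (8.15%), at 0.0973 and 0.0534 nonamers per kb of 3′ UTR. The median 3′ UTR was 1244 bases in the risers and 1380 bases in all, and the coding sequence 1446 and 1422 bases. The risers had fewer exons (median 5 against 9) and shorter genes (median span 22.7 against 35.9 kb), and 38 (6.61%) consisted of 1 exon, as JUN and many histone genes do, against 263 (2.2%). RefSeq promoters of 300 bases were at hand for 471 of the 575. The TATAAA motif on the gene strand was found in 49 of them (10.4%) and in 378 of 9828 promoters of all tested coding genes (3.85%), and the CArG box, searched on both strands, in 8 (1.70%) and 107 (1.09%). In all 35116 promoters of the same length in the RefSeq table the shares were 7.33% and 1.29%. The motifs were counted without regard to whether they overlapped. Of the 24 immediate-early genes 4 had a nonamer, and of their 18 promoters 2 had a CArG box. Of the genes that fell at least 2-fold only 58.5% could be matched, too few for such a comparison.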

How the data were processed

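Cytoplasmic RNA of A375 cells (500 ng per library) was sequenced as QuantSeq 3′ end libraries. Per the study's methods and processing notes, the authors trimmed reads with fastp 0.20.1, aligned them with HISAT2 2.2.1 to GRCh38.p13 and counted them per gene with HTSeq 0.13.5; the deposited values are raw counts for 44659 entries, and the strand setting is not given in the sources used here. Groups were taken from the labels, columns from their names. All 96 libraries (32 groups of 3) were fitted together with edgeR 4.0.16 (quasi-likelihood test, TMM scaling, filterByExpr, Benjamini-Hochberg adjustment; R 4.3.3), which kept 14948 entries, and contrasts were matched by time. CPM uses the TMM-scaled library size. Fold bounds against groups at 0 used a floor of 3 counts over the group. Depth was 3719323 to 11571408 counts. Replicates of a group differed by more than sampling noise (chi-square per degree of freedom 3.08 to 15.2), so none were merged into 1 sample. Of the entries, 5084 are suffixed repeats of a symbol, holding 0.042 to 0.056% of counts, and an entry low here can reflect how such loci were split. Named were the 12 largest called rises and falls over 3 and 5 h and the 4 largest each way for the other contrasts, at a mean of at least 5 CPM and without suffixed repeats, the former with the same sign in all 6 same-numbered differences, and list members whose role is described. The members and lists were chosen with earlier results of these data known. On simulated counts for the contrast over 3 and 5 h (14948 genes), 47 of 50 genes lowered and 48 of 50 raised 2-fold, and 50 of 50 in each direction with a log2 change of 2, were called with the right sign, and 10 of 14748 unchanged genes were called. The changed genes were drawn only from those above 5 CPM in vehicle, as many raised as lowered, with no replicate effect simulated. These rates therefore do not cover rarer genes, replicate effects or a response as wide as that of the data. Alternatives were DESeq2 1.42.0, other scaling, no filter, the contrast's own libraries, a replicate block and leaving out replicates. Some genes within the lists and counts are not reported here by name.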

Additional observations from a re-analysis of the deposited data

Results flagged for a closer look

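Each result given here is a difference between effects of cycloheximide that was itself tested across all genes in edgeR's quasi-likelihood fit, and that passed the adjusted p of 0.05. Groups hold 3 libraries, so no single library was tested for standing apart. In all, 280 genes differed between 5 h and 3 h, 1682 between the mean of 3 and 5 h and 1 h, and 1678 between the pretreatments.

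Between 5 and 3 h the named differences of the log2 effect were 7.95 for LOC105370363, 2.92 for KLHL15, 2.82 for H3C4 and 2.40 for ATF3, and −1.70 for CHST1, −1.68 for ZBTB47, −1.58 for NEIL3 and −1.49 for CTTNBP2, whose gene overlaps CFTR. Against 1 h they were 6.02 for EGR2, 5.66 for FOSB, 5.21 for FOS and 4.78 for NR4A3, and −5.51 for XAGE1A, −4.91 for YWHAE, −2.77 for LOC107985000 and −2.43 for LOC107984747. The values of XAGE1A and YWHAE rest on cycloheximide libraries at 1 h whose standard deviation exceeds their mean.

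Between MAPKi and DMSO pretreatment the effect was larger after MAPKi for TNFAIP3 (2.97), PLD6 (2.53), RN7SK (2.31) and POU3F2 (2.06). It was smaller for FOS (−5.98), EGR1 (−5.62), FOSB (−4.46) and FLG (−4.13). The genes with the largest changes over 3 and 5 h were chosen by the effect after DMSO, which the difference subtracts, so the choice by itself favours a smaller effect after MAPKi. Of those with the largest rises, the effect was also smaller after MAPKi for LOC105370363 (−4.39), ARC (−4.12), ATF3 (−3.50), JUN (−3.05), NR4A3 (−2.70) and LOC101930665 (−1.90). Of those with the largest falls, the fall was smaller after MAPKi, so that the difference is positive, for LOC107986862 (2.00), RPL23AP32 (1.69), LOC107986874 (1.65), PRTG (1.51), LOC107986699 (1.36), KCNQ5-IT1 (1.23), LOC107984120 (1.15), LGR4 (1.04) and CBX6 (0.75). The differences of EGR4 and EGR2 were not called (adjusted p = 0.9999 each), with means of 0 and 0 to 0.303 CPM in the MAPKi vehicle groups.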

How the results depend on the processing

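In the 8 contrasts compared, no call over all genes changed direction under these alternatives. The contrast at 1 h and that after MAPKi were refitted as well but left out of this comparison. Of 146 named gene results, 142 to 145 stayed on the same side of the threshold under DESeq2, other scaling, no filter, the contrast's own libraries and the block, and 133 to 136 when a replicate number was left out. With a term for the replicate number as a block, 4935 genes were called over 3 and 5 h, 1682 at 3 h and 4247 at 5 h. The block gave 345 between 5 and 3 h, 1863 against 1 h, 1865 between pretreatments and 50 between the vehicle times. No named call was lost. Same-numbered libraries deviated together with r from −0.011 to 0.57 (10 of 18 over 0.1). The count columns of each number share a prefix in their names, but the labels do not say what a number marks. The main fit therefore did not take the numbers as pairs, although same-numbered differences entered the choice of named genes. The genes called ranged over left-out replicates from 756 to 844 at 3 h, 2664 to 2991 at 5 h, 71 to 79 between 5 and 3 h, 770 to 987 against 1 h, 827 to 1148 between pretreatments and 2 to 11 between the vehicle times, where fewer samples enter each fit. Between the vehicle times DESeq2 called 66, no filter 365 and the contrast's own libraries 10, and at 0 h no filter called 7, and the cause was not tested.

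List medians also moved by more than the replicate spread, cause not tested. With total-count scaling they were 0.18 for nonsense-mediated decay factors, 0.52 for SR factors, −0.13 for SREBP genes, −0.12 for ribosomal proteins, −0.045 for translation factors, 0.13 for ribosome biogenesis, 0.037 for the MYC network, −0.048 for mitosis, −0.21 for replication, −0.11 for the BCL2 family, −0.46 for NRF2 targets, −0.092 for the proteasome, 0.46 for ZNF genes and −0.19 for melanocyte markers. Under DESeq2, median-of-ratios scaling and no filter they were −0.019, −0.018 and −0.014 for translation factors, 0.16, 0.16 and 0.16 for ribosome biogenesis and −0.44, −0.44 and −0.43 for NRF2 targets, and under the former pair −0.063 and −0.064 for the proteasome. With the contrast's own libraries ribosome biogenesis was 0.16 and NRF2 −0.43. Leaving out replicates gave 0.56 to 0.96 for ERK genes, 0.17 to 0.23 for decay factors, 0.17 to 0.30 for decay substrates, −0.019 to 0.023 for translation factors, 0.18 to 0.20 for ribosome biogenesis, 0.027 to 0.11 for the MYC network, −0.038 to −0.024 for mitosis, −0.44 to −0.40 for NRF2, 0.58 to 1.14 for YAP, −0.20 to −0.11 for melanocyte markers and −1.46 to −0.068 for other cell types. The BCL2 family ran from −0.093 to 0.033, with the sign turned without replicate 3. Depth limits genes under about 5 CPM.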

Other observations

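The groups given here were chosen after their values were seen, and are given as values. Mitochondrial RNAs other than mRNAs went down: of 21 tested mitochondrial tRNA entries (22 listed) 18 fell and none rose, with a median log2 change of −0.86 over 3 and 5 h (−0.67 at 3 h, −0.95 at 5 h, and −0.99 after MAPKi). Both mitochondrial rRNA entries fell, RNR1 by 0.59 and RNR2 by 0.36 on the log2 scale. The largest value of the group, −3.52 for TRNA, rests on 1 vehicle library at 5 h with 268 CPM, where the other vehicle libraries had 0.273 to 4.70 CPM. It was −1.10 and not called without replicate 1, and without that entry the median of the other 20 was −0.85. TRNE and TRNL2 were not called without replicate 1, TRNH not without replicate 2 and TRNQ not without replicate 3. TRNF, TRNL1 and TRNV were not called without replicate 1 or 2. The means of the tRNA entries ran from 1.64 to 496 CPM. How short non-polyadenylated RNAs enter oligo(dT)-primed libraries was not tested.

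TXNIP, an inhibitor of glucose uptake and thioredoxin, was at 126, 172 and 169 CPM in vehicle and 2263, 2323 and 2503 CPM in cycloheximide libraries at 3 h, and at 144, 166 and 204 CPM against 3509, 3590 and 4584 CPM at 5 h. Its log2 change was 4.21, and those of the related arrestin-domain genes ARRDC3 and ARRDC4 were 3.84 and 3.11, all called. Targets of the aryl hydrocarbon receptor, a ligand-activated factor for xenobiotics, rose too. All 3 listed were called, with log2 changes from 3.54 to 6.98 and means from 4.55 to 262 CPM. TIPARP went from 45.5 to 55.5 CPM to 331 to 351 CPM at 3 h and from 30.6 to 33.3 CPM to 556 to 755 CPM at 5 h, and CYP1A1 from 0.772 to 2.66 CPM to 9.83 to 16.7 CPM and from 0 to 1.75 CPM to 43.5 to 71.8 CPM. HES1, a repressor that times itself by feedback, rose by 3.71, and of the CLK kinases and L-type cyclins, which act on SR proteins, 5 of 5 tested rose, CCNL1 by 2.94 and CLK1 by 2.2.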
